A study of Mus musculus with 102 samples.

Results

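The kinases described here decode calcium and lipid signals in neurons. They comprise 5 calcium/calmodulin-dependent protein kinases (Camk2a, Camk2b, Camk2d, Camk2g and Camk4) and 4 isoforms of protein kinase C (Prkca, Prkcb, Prkcd and Prkce), 9 genes of the 18193 genes for which a probe set named a single gene. Every probe set that carried 1 of these symbols was collected, 33 of 45037 probe sets without controls. For each gene the probe set with the highest mean over the regions was used for all levels and tests, and the probe set with the largest standard deviation (SD) over regions is given as a description only. The choice left 13 probe sets, because both criteria picked the same one for Camk2b, Camk2d, Camk4, Prkca and Prkcd. In the RefSeq annotation of build GRCm38.p6, Prkcd (chr14:30595353-30626414) and Camk2g share chromosome 14, Prkca (chr11:107933387-108343888) and Camk2b share chromosome 11, Camk2a and Camk4 share chromosome 18, and Camk2d, Prkcb and Prkce lie on chromosomes 3, 7 and 17.

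The samples were tissue punches of 51 regions of the central nervous system (CNS) of male Balb/c mice aged 7 to 8 weeks. None of the groups carried a treatment or a genetic change, and the comparisons are between anatomical regions. The study sampled mice in a light/dark cycle or in constant darkness. Which pools had which lighting was not recorded here, and its part was not tested. Each array held RNA pooled from 30 to 150 mice that were sampled at 6 time points 4 h apart, and each region had 2 such arrays from separate pools. A pool thus averages over the day and over many animals, and individual animals cannot be resolved. The 48 regions used for all tests (96 arrays) were 17 of the telencephalon, 6 of the thalamus (the habenula, Hb, among them), 12 of the hypothalamus, 6 of the mesencephalon, 2 of the pons, 3 of the cerebellum and 2 of the spinal cord. In 5 of the 48 regions both pools were recorded with the same sampling day. The retina, pituitary and pineal stood apart in the study's own grouping and are given separately. Values are log2 signal, so that a difference of 1 is a change by a factor of 2. Levels of different probe sets were not compared with each other. In tissue punches, fewer cells of a type and less RNA per cell cannot be told apart.

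The median of an array lay between 7.32 and 7.46. The SD within regions, between both pools, had a median of 0.12 over all probe sets, and the SD of the 9 probe sets tested lay between 0.09 for Prkce and 0.26 for Camk2a. Markers of the labelled regions had their highest level where the labels placed them for Prox1 and Dsp (DG, the dentate gyrus), Fibcd1 (CA1), Drd1 and Ppp1r1b (striatum), Tcf7l2, Rora and Lef1 (thalamus), Gabra6, Pcp2 and Calb1 (cerebellar cortex), Avp, Oxt and Vip (hypothalamus), Hoxc8 (spinal cord) and Th and Slc6a3 (SN, the substantia nigra). Wfs1, listed for CA1, was highest in the olfactory tubercle with CA1 in the next place, Tbr1, listed for neocortex, was highest in the piriform cortex, and Hoxc9 had a nearly flat probe set that was highest in the supraoptic nucleus (SO) at 8.58, against a median region of 8.38. Regions were sampled in 4 periods (A to D), of which B held regions of every division and A, C and D did not.

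Calcium that enters a neuron binds calmodulin, and the complex activates the CaM kinases. CaMKII is a holoenzyme built from alpha, beta, gamma and delta subunits, the products of Camk2a, Camk2b, Camk2g and Camk2d, and the alpha and beta subunits are known as abundant proteins of forebrain synapses with a role in synaptic plasticity. CaMKIV, the product of Camk4, acts largely in the nucleus, where it phosphorylates transcription factors such as CREB. Protein kinase C isoforms are activated by diacylglycerol, which phospholipase C makes downstream of Gq-coupled receptors. The alpha and beta isoforms (Prkca, Prkcb) also need calcium, whereas the delta and epsilon isoforms (Prkcd, Prkce) do not.

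Promoter windows were available from RefSeq (build GRCm38.p6) for 5 of the 9 genes, each reaching from 250 bases before to 50 bases after an annotated start. They are shown for Prkcd, which had the widest range over regions among the probe sets tested, in both windows available for it. Neither Prkcd window takes the outer end of the annotated gene as its start. The window of Prkca, which was lowest in the thalamic nuclei where Prkcd was highest, is shown as well. Capitals mark matches on either strand to the TCF/LEF core CTTTGA, the cAMP response half-site TGACG, the GC box GGGCGG, the CCAAT box CCAAT and the TATA box TATAAA, and overlapping matches were each counted. The sequences run 5′ to 3′ on the gene's strand.
Prkcd, chr14:30626159-30626458, minus strand: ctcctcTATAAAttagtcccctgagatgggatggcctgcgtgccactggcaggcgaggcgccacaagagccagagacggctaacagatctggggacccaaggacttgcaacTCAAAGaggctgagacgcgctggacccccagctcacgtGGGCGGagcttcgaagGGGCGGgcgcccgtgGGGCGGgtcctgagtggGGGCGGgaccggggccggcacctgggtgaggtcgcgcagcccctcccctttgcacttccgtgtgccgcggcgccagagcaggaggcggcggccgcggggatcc
Prkcd, chr14:30610261-30610560, minus strand: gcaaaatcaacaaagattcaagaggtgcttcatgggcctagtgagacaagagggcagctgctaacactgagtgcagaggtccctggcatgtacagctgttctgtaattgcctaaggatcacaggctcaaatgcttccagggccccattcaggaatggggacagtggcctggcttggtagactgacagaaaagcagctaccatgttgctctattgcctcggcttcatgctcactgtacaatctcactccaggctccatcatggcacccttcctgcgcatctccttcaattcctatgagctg
Prkca, chr11:108343839-108344138, minus strand: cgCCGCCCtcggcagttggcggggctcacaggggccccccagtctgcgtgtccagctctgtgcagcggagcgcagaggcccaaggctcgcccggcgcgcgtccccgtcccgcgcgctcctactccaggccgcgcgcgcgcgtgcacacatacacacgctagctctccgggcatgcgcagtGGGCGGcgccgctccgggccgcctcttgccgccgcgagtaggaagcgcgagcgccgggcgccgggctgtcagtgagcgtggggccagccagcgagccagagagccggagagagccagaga
The upstream Prkcd window held 1 TCF/LEF core, 1 TATA box and 4 GC boxes, while the downstream window held none of the 5 motifs. The Prkca window held 2 GC boxes and no other match. Among the windows not shown, those of Camk2b and Camk2d held 3 GC boxes each and that of Prkcb held 1, without a match to the other motifs. Of 32851 such windows, 16.0% held the TCF/LEF core, 20.8% the half-site, 35.7% the GC box, 37.4% the CCAAT box and 13.6% the TATA box. A match is a description of letters and not a bound site.

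All 9 genes differed among the 48 regions (limma F test, adjusted p between 3.55e-43 for Prkcd and 6.38e-25 for Camk2g), as did 91.1% of all probe sets. When each region was set against the mean of the other 47, the 9 genes gave 142 higher and 184 lower calls of 432 pairs of gene and region. Of all pairs of probe set and region, 13.9% were called higher and 14.7% lower. The number of regions called was largest for Prkcd (10 higher and 36 lower), Prkcb (18 and 24) and Camk4 (18 and 21), and smallest for Camk2d (16 and 11). The lower calls of Prkcd are relative to a mean that a few high regions raised. Its mean over the 48 regions, 9.14, lay above the upper quartile of regional means, 8.92. Leaving out the second pool of the dorsomedial hypothalamus (DM) lost 5 of these calls, for Camk2a, Camk2g, Prkca, Prkcb and Prkce, and leaving out any other single array lost fewer calls of its own region.

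**Figure D1:**
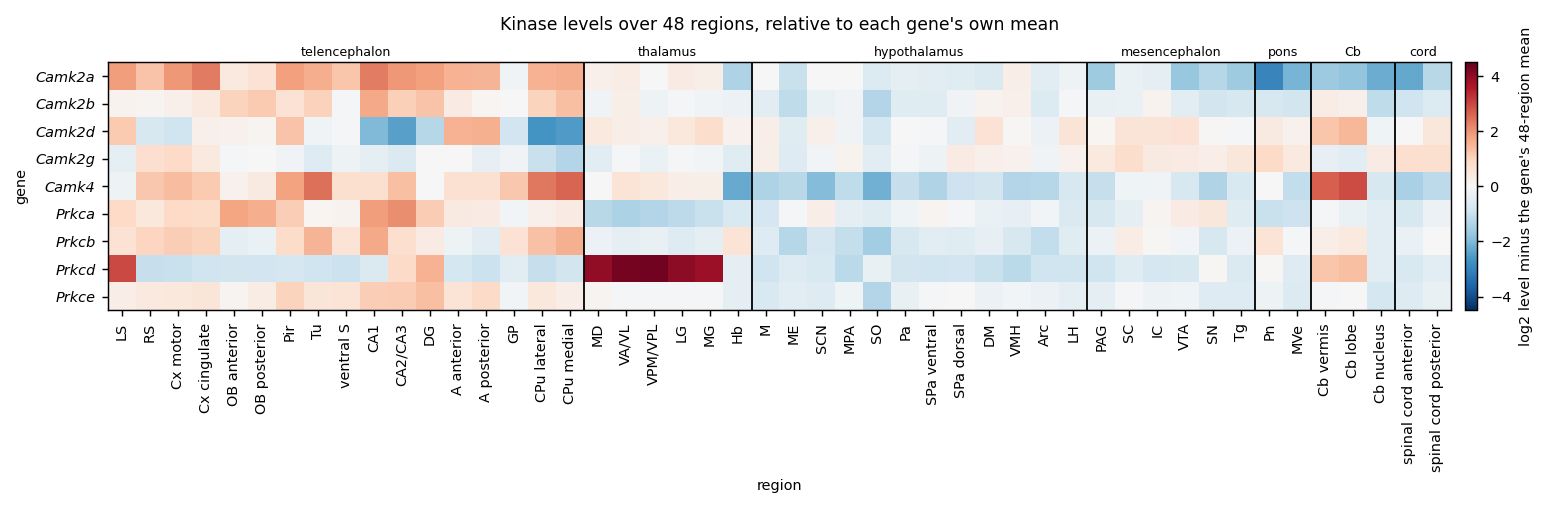
Mean log2 level of each of the 9 genes (rows) in each of 48 regions (columns, grouped by division), minus the gene's own mean over the 48 regions; Cb is the cerebellum and cord the spinal cord. The dark red block is Prkcd in the 5 thalamic nuclei, and the dark blue cells of Camk2d are the caudate putamen and CA2/CA3.

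Prkcd (probe set 1422847_a_at) encodes protein kinase C delta, a calcium-independent isoform, and spanned 5.54 log2 units over the regions, a 46.6-fold range. It was highest in the 5 thalamic nuclei and then in the lateral septum. In the ventral posteromedial and posterolateral nuclei (VPM/VPL) the pools read 13.61 and 13.33, in the ventral anterior and ventrolateral nuclei (VA/VL) 13.33 and 13.58, in the lateral geniculate (LG) 13.19 and 13.14, in the mediodorsal nucleus (MD) 13.04 and 13.23, and in the medial geniculate (MG) 13.11 and 12.89. VPM/VPL overlapped with VA/VL only, so that the other thalamic nuclei lay below both of its pools. The lateral septal nucleus (LS) followed at 12.21 and 12.01, a gap of 0.89 below MG, and the dentate gyrus at 10.81 and 10.57, a gap of 1.42 below LS. Both parts of the cerebellar cortex (10.53 and 10.49 in the lobe, 10.43 and 10.34 in the vermis) and CA2/CA3 (9.71 and 10.26) came next. A further gap of 0.78 separated CA2/CA3 from the pontine nucleus (Pn), and the remaining 38 regions had means between 7.93 in the ventromedial hypothalamus and 9.21 in Pn. The habenula, the sixth thalamic region, read 8.28 and 9.15 and belonged to this lower set.

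Against the other 43 regions, Prkcd in the 5 thalamic nuclei ran from 12.89 to 13.61 with a median of 13.21 (10 arrays), whereas the other regions ran from 7.84 to 12.21 with a median of 8.36 (86 arrays). The groups did not overlap, and the difference was 4.58 ± 0.06 (SE; limma, adjusted p = 1.15e-53). It was 4.46 within sampling period A and 4.57 within period B, the periods that held thalamic nuclei. Taking region means as the samples, so that the error is the spread between regions, kept Prkcd called (adjusted p = 3.09e-13). The second Prkcd probe set followed the first with r = 0.97 over the 48 regions and was highest in VA/VL. Myelin genes moved with this contrast, since 7 of 7 oligodendrocyte markers were called higher with a median difference of 1.19, and the mean level of the list ran from 11.04 to 12.36 in the thalamic nuclei and from 7.69 to 12.64 elsewhere. Neuron (5 of 7, median 0.16) and endothelial markers (4 of 5, 0.12) were also higher and leptomeningeal ones lower (5 of 6, -0.36). In the spinal cord the oligodendrocyte list ran from 12.47 to 12.64 and Prkcd from 8.27 to 8.73. The part of these lists in the result was not tested.

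**Figure D2:**
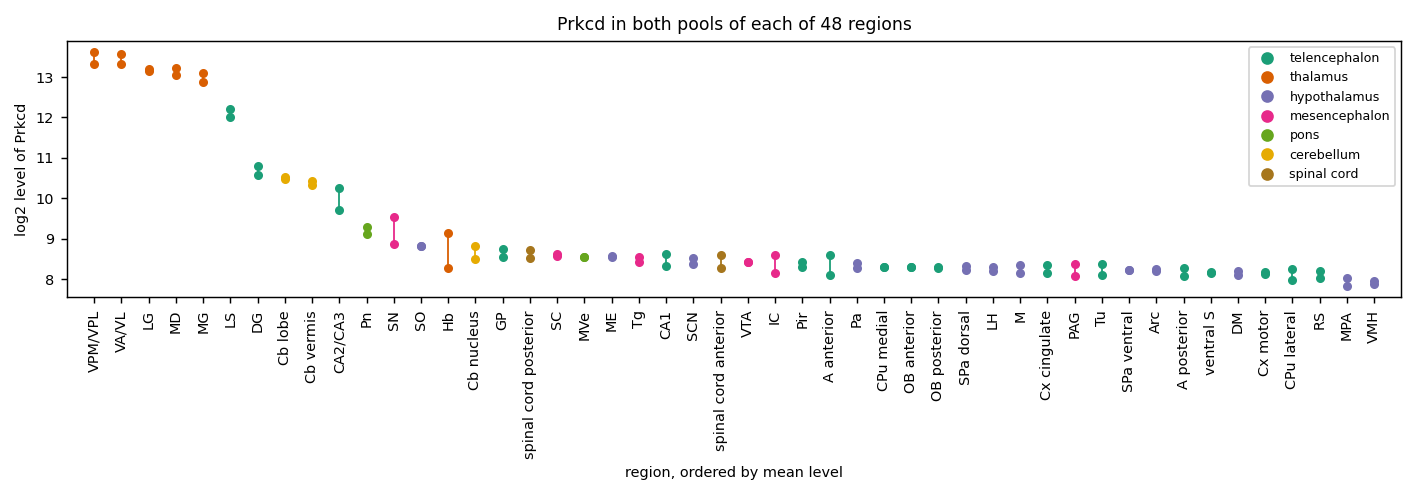
Log2 level of Prkcd (vertical axis) in both pools (points joined by a line) of each of 48 regions, ordered by mean and coloured by division. The 5 thalamic nuclei lie at 12.89 or above and the lateral septum at 12.01 and 12.21, apart from all other regions.

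The other kinases did not share this thalamic level. Of the 9 genes, 4 were higher in the thalamic nuclei (Prkcd, Camk2d, Camk4 and Camk2a) and 3 were lower (Prkca, Prkcb and Camk2g), against 21.1% and 26.1% of all probe sets. Prkca, a calcium-dependent isoform, ran from 9.22 to 9.80 with a median of 9.54 in the thalamic nuclei and from 9.64 to 12.88 with a median of 10.75 elsewhere, a difference of -1.37 ± 0.05 (adjusted p = 2.08e-31). The 5 nuclei held 5 of the 6 lowest regional means of Prkca, with Pn (9.86 and 9.64) between MG and LG. Prkcb differed by -0.45 ± 0.04 (adjusted p = 4.54e-13), Camk2d by 0.50 ± 0.06 (9.60e-11), Camk4 by 0.37 ± 0.07 (2.43e-06), Camk2a by 0.27 ± 0.08 (0.00504) and Camk2g by -0.23 ± 0.04 (7.89e-06). Prkce (-0.04 ± 0.03, adjusted p = 0.256) and Camk2b (-0.08 ± 0.04, 0.122) did not pass, and without the first VA/VL pool Camk2b became called at -0.13 (0.0139). Prkcd and Prkca were the calls that stayed with region means as the samples (Prkca adjusted p = 0.0101), and the adjusted p of the other 5 lay between 0.534 and 0.866. Prkca differed by -1.39 within period A and -0.94 within period B, Prkcb by -0.55 and -0.41, Camk2d by 0.31 and 0.57, and Camk4 by 0.04 and 0.51. The sign of Camk2a (-0.12 in A and 0.90 in B) and Camk2g (0.08 in A and -0.65 in B) turned in period A.

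Camk2a (1457311_at), the alpha subunit of CaMKII, was highest in the telencephalon. Its highest means were in cingulate cortex (13.72 and 13.71), CA1 (13.65 and 13.74), CA2/CA3 (13.08 and 13.62), motor cortex (13.37 and 13.30) and the lateral septum (13.34 and 13.16), and cingulate cortex overlapped with CA1 only. The first 14 regions in the order were all telencephalic and ended with the ventral subiculum at 12.52 and 12.79, above a gap of 0.61 to the posterior olfactory bulb. The globus pallidus (GP), at 11.08 and 11.34, was the telencephalic region with the lowest level. The pontine nucleus was lowest at 8.44 and 8.40, 0.66 below the anterior spinal cord, and the full range was 5.29 (39.2-fold). Pools disagreed most in DM (11.19 and 10.28), SO (11.21 and 10.30) and the anterior spinal cord (8.66 and 9.51). Of the 5 other Camk2a probe sets, 4 followed the one tested with r of at least 0.8, and the set with the largest SD ran from 12.59 in CA1 to 6.08 in the cerebellar nucleus. The remaining set was nearly flat, with an SD over regions of 0.10. None of the 5 had cingulate cortex highest, since CA1 was highest in 3 of them, DG in 1 and the posterior amygdala in the flat one.

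Camk2b (1448676_at), the beta subunit, had a narrower range of 3.02 and was highest in CA1 (12.47 and 12.38), with no region overlapping. The medial caudate putamen (12.20 and 11.96), DG (12.08 and 11.97), the posterior olfactory bulb (11.88 and 11.93) and CA2/CA3 (11.64 and 12.02) followed. The first 8 regions were hippocampal, striatal or olfactory, and a gap of 0.36 set them above the piriform cortex (Pir). Motor cortex (10.88 and 11.07) and the retrosplenial cortex (RS, 10.82 and 10.93) lay lower in the order than in that of Camk2a. SO was lowest at 9.42 and 9.40. Over the 48 regions, Camk2a and Camk2b were correlated with r = 0.74. After each was centred on its own mean, Camk2a exceeded Camk2b by 1.90 in cingulate cortex, 1.71 in motor cortex and 1.70 in the lateral septum, and was below it by 1.95 in the vermis, 2.01 in the cerebellar lobe and 2.25 in Pn.

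Camk2d (1422659_at), the delta subunit, had another order. It was highest in the posterior (11.01 and 11.00) and anterior amygdala (11.05 and 10.91), which overlapped, followed by the cerebellar lobe (10.81 and 10.99), Pir (10.63 and 10.74), the vermis (10.91 and 10.41) and the lateral septum (10.58 and 10.58). Its 4 lowest regions were among the 8 highest of Camk2b. The lateral caudate putamen read 6.36 and 7.08, the medial caudate putamen 6.98 and 6.76, CA2/CA3 6.90 and 7.04, and CA1 7.35 and 7.49. A gap of 0.71 lay between DG (8.19 and 8.06) and CA1, and the range was 4.29 (19.6-fold). The olfactory tubercle (Tu), at 9.31 and 9.17, did not share the low level of the caudate putamen. Camk2d had 7 probe sets, of which 3 of the 6 others followed with r of at least 0.8, and 2 others had means of 5.27 and 5.34 over the regions and a range below 1. The posterior amygdala was highest in 3 of the 7 sets, and the cerebellar lobe in the rest. The set with the next highest mean was lowest in the dorsal subparaventricular zone, at 7.53. The remaining other sets were lowest in CA1, the medial caudate putamen or RS.

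Camk2g (1423942_a_at), the gamma subunit, had the smallest range of the 9 genes, 2.18 (4.54-fold). Motor cortex (11.94 and 11.93) overlapped with Pn (11.85 and 12.00), and the superior colliculus (11.92 and 11.76), RS (11.73 and 11.93) and both spinal cord regions (11.83 and 11.81, 11.85 and 11.74) followed. The medial (9.58 and 9.92) and lateral caudate putamen (9.85 and 10.31) were lowest and overlapped. Pn, the lowest region of Camk2a, was thus among the highest of Camk2g. Camk2g was correlated negatively with Camk2a (r = -0.37) and Camk2b (r = -0.41) over the regions. After centring, Camk2d exceeded Camk2g by 2.01 in the cerebellar lobe and 1.96 in the posterior amygdala and was below it by 1.78 in motor cortex, 1.77 in CA2/CA3 and 1.70 in the lateral caudate putamen.

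Camk4 (1439843_at) spanned 5.21 log2 units (37-fold). It was highest in the cerebellar lobe (12.75 and 12.78), with no overlap, and the vermis (12.61 and 12.42), followed by the medial caudate putamen (12.57 and 12.33), Tu (12.26 and 12.35) and the lateral caudate putamen (12.08 and 12.28). A gap of 0.54 separated these 5 regions from Pir. The suprachiasmatic nucleus (SCN, 7.87 and 7.88), SO (7.65 and 7.70) and the habenula (7.47 and 7.64) were lowest and stood 0.49 below the anterior spinal cord. The pools disagreed most in the inferior colliculus, at 10.25 and 9.07. Of the other probe sets, 3 of 4 followed with r of at least 0.8 and were also highest in the cerebellar lobe, and the last was flat, with an SD of 0.10.

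**Figure D3:**
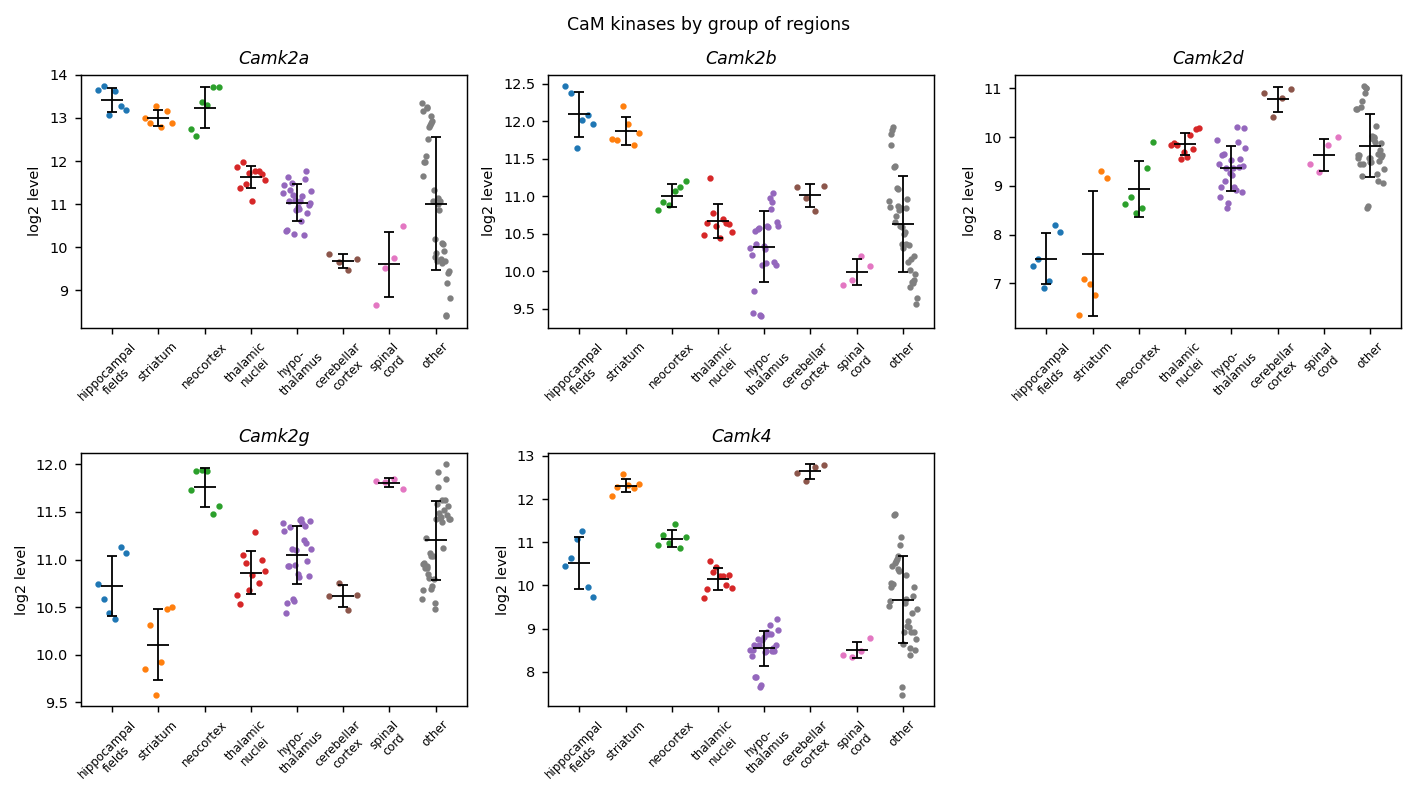
Log2 level of the 5 CaM kinases (panels) in single arrays (points) of 7 groups of regions and of all other regions, with the mean and SD of the arrays in black. Camk2g is low and Camk4 high in the striatum, Camk2d is low in 4 of 6 striatal arrays, and Camk2a falls below 10.5 in the cerebellar cortex and spinal cord.

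Prkca (1437393_at) was highest in CA2/CA3 (12.84 and 12.88) and CA1 (12.57 and 12.70), which did not overlap, followed by the anterior (12.54 and 12.55) and posterior olfactory bulb (12.45 and 12.37). A gap of 0.50 separated these 4 regions from DG (11.90 and 11.91). Outside the telencephalon the highest was SN (11.20 and 11.32). All 3 Prkca probe sets were highest in CA2/CA3. The tested set was lowest in VA/VL (9.34), and the others in the habenula (8.03) and DM (6.51). Prkcb (1460419_a_at), the beta isoform, was highest in CA1 (13.64 and 13.55), which overlapped with the medial caudate putamen (13.58 and 13.41), and Tu (13.37 and 13.45) and the lateral caudate putamen (13.10 and 13.28) came next. Its largest-SD probe set had the lateral caudate putamen (12.67 and 12.97) and CA1 (12.79 and 12.82) on top. Unlike Prkca, Prkcb was not high in the anterior olfactory bulb (11.44 and 11.51), against a median of 11.63 over the 48 regions. Prkcb reached 12.57 and 12.44 in the habenula and 12.30 and 12.68 in Pn. After centring, Prkca exceeded Prkcb by 2.20 in the anterior and 1.94 in the posterior olfactory bulb, and was below it by 1.62 in Pn, 1.42 in Tu and 1.31 in the habenula.

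Prkce (1452878_at), the epsilon isoform, had the smallest SD between pools and a range of 2.68 (6.43-fold). It was highest in DG (13.07 and 12.87) with no overlap, then in CA2/CA3 (12.72 and 12.79), CA1 (12.73 and 12.69), Pir (12.56 and 12.70) and the posterior amygdala (12.48 and 12.47). SO was lowest at 10.25 and 10.33, a gap of 0.52 below the cerebellar nucleus. Of the 3 other Prkce probe sets, 1 was also highest in DG (mean 12.34) and lowest in SO, and the set with the largest SD was highest in CA1 (11.76 and 11.83) and lowest in the cerebellar nucleus. The remaining set was nearly flat, with a mean of 4.20 and an SD over regions of 0.05. SO was the lowest region of Camk2b, Prkcb and Prkce, and SO and the median eminence (ME) also had the lowest neuron marker levels, with medians of -1.23 and -1.38 relative to the other regions, and the highest leptomeningeal ones, at 2.24 and 1.94. In SO, oligodendrocyte (7 of 7, median 1.61), endothelial (5 of 5, 1.04) and microglia markers (5 of 6, 0.72) were called higher too. The part of these markers in the low levels was not tested. Prkce was correlated with Camk2b (r = 0.82) and Camk2a (r = 0.80) over the 48 regions, while the correlation of Prkcd with the other 8 genes lay between -0.35 and 0.20. These correlations describe regions that share arrays and anatomy, and were not tested.

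**Figure D4:**
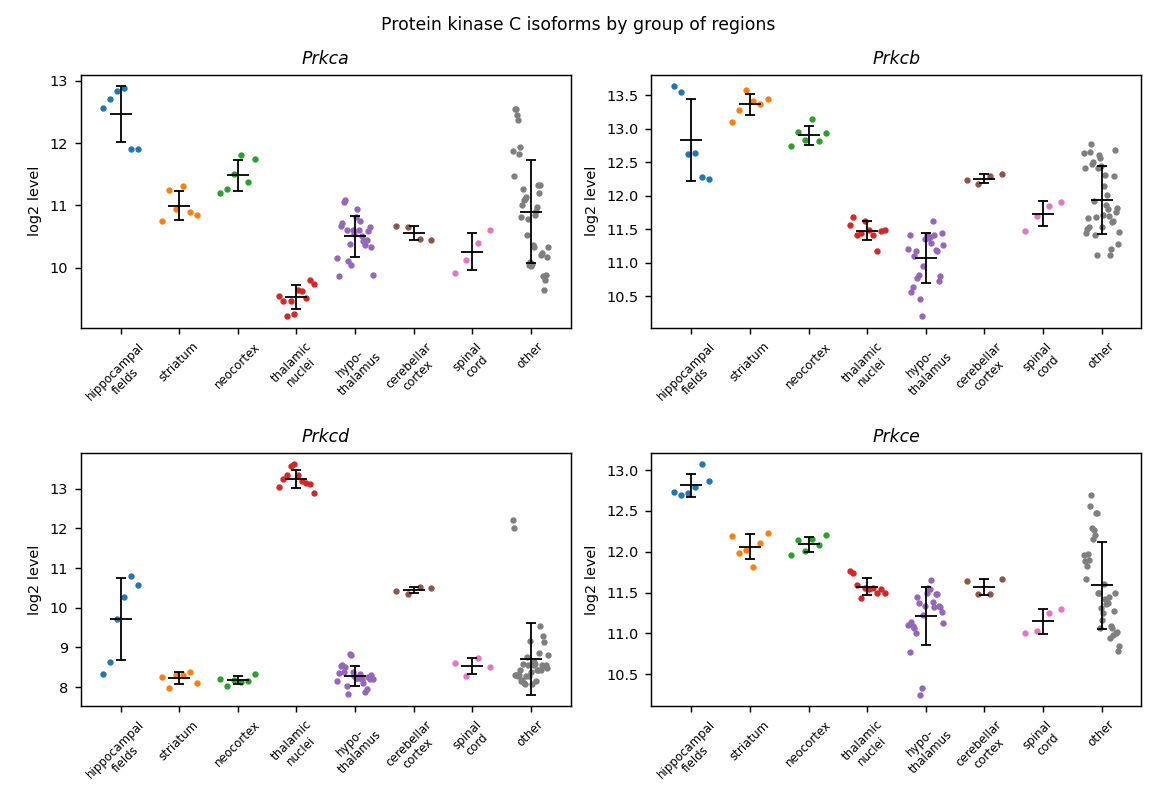
Log2 level of the 4 protein kinase C isoforms (panels) in single arrays (points) of 7 groups of regions and of all other regions, with the mean and SD of the arrays in black. Prkcd is high in the thalamic nuclei, where Prkca is low, and the hippocampal arrays of Prkce lie above all neocortical ones.

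Groups of regions were then set against each other in 7 comparisons. These share arrays with each other, since a region of 1 group is part of the other regions of the next. In the telencephalon 6 of the 9 genes were higher than in the other 31 regions (26.5% of all probe sets were) and 3 were lower (30.1%). Camk2a ran from 11.08 to 13.74 with a median of 13.02 in the 34 telencephalic arrays and from 8.40 to 11.97 with a median of 10.86 in the other 62, a difference of 2.32 ± 0.05 (adjusted p = 4.84e-42). Camk4 differed by 1.72 ± 0.04 (1.18e-40), Prkca by 1.30 ± 0.03 (1.99e-40), Camk2b by 1.06 ± 0.03 (9.69e-40), Prkcb by 1.06 ± 0.03 (1.12e-38) and Prkce by 0.93 ± 0.02 (1.52e-43). In each of these genes the groups overlapped. Within the 4 sampling periods the differences of these 6 genes were all positive, between 0.64 for Prkcb in period C and 2.89 for Camk4 in period D. Camk2d (-0.68 ± 0.04, adjusted p = 1.67e-23), Prkcd (-0.61 ± 0.04, 2.09e-21) and Camk2g (-0.29 ± 0.03, 2.28e-14) were lower, and these 3 were not called with region means as the samples (adjusted p = 0.0627, 0.397 and 0.125), while the 6 higher ones were. Within periods the sign of Camk2d was positive in period D (1.39), where Pir was the only telencephalic region, and that of Prkcd was 0.21 in period C. Oligodendrocyte markers were lower in the telencephalon (7 of 7, median -1.06, list level 7.69 to 12.14 against 9.03 to 12.64), as were leptomeningeal ones (5 of 6, median -0.20), and microglia markers were higher (6 of 6, median 0.25). Of 7 neuron markers 5 were higher and 2 lower (median 0.20, list level 11.83 to 13.09 against 10.79 to 12.84). Of 6 astrocyte markers 2 were higher and 4 lower (median -0.41). The part of these lists was not tested.

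**Figure D5:**
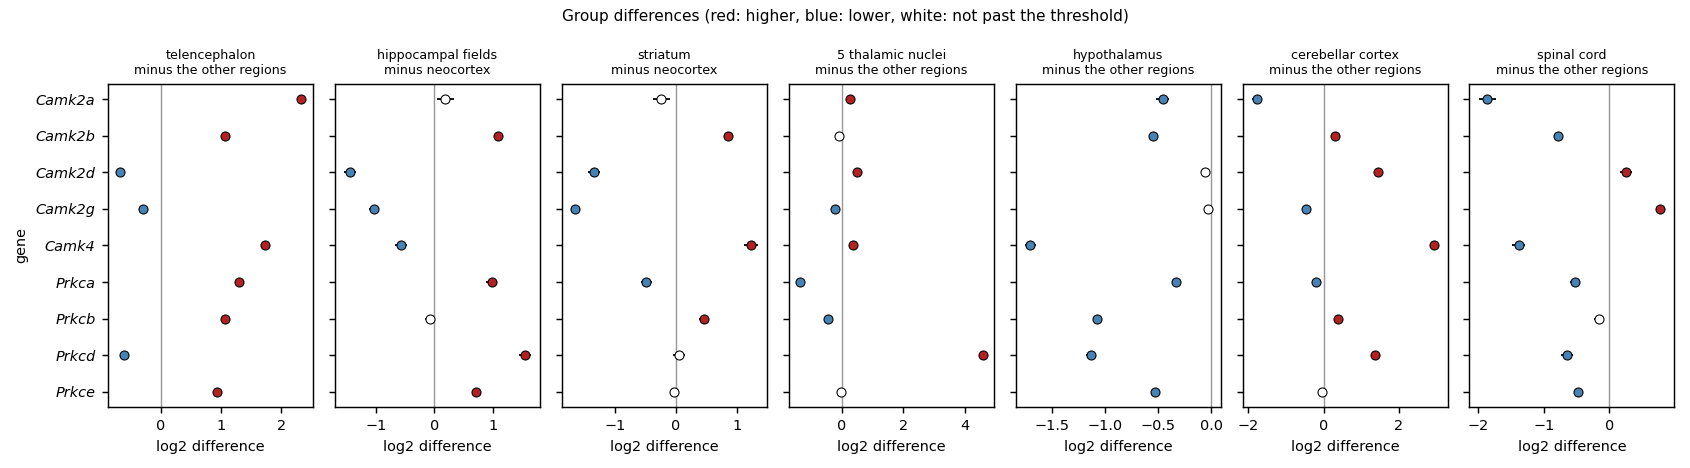
Difference in log2 level (horizontal axis) of the 9 genes (rows) in 7 comparisons (panels), with the standard error as a bar, which is mostly hidden by the point. Scales differ between panels. Camk2d and Camk2g lie left of 0 in the first 3 panels, and Prkcd lies at 4.58 in the thalamic panel.

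Against neocortex (RS, motor and cingulate cortex), the hippocampal fields (CA1, CA2/CA3 and DG) were higher in 4 genes and lower in 3, beside 15.2% and 14.2% of all probe sets. Camk2b ran from 11.64 to 12.47 with a median of 12.05 in the hippocampal fields and from 10.82 to 11.21 with a median of 11.00 in neocortex (6 arrays each), a difference of 1.09 ± 0.07 (adjusted p = 8.47e-19). Prkcd (1.55 ± 0.10, adjusted p = 2.89e-19), Prkca (0.98 ± 0.09, 3.15e-14) and Prkce (0.72 ± 0.05, 3.03e-17) were also higher. The Prkcd difference came with unequal fields, since CA1 at 8.32 and 8.63 reached into the neocortical range of 8.03 to 8.34. Camk2d (-1.44 ± 0.10, adjusted p = 5.84e-18), Camk2g (-1.04 ± 0.07, 8.12e-18) and Camk4 (-0.57 ± 0.11, 5.75e-05) were lower. Arrays of both groups did not overlap for Camk2b, Camk2d, Camk2g, Prkca and Prkce. In all 7 comparisons overlap was read for the 9 genes and the marker lists only. The share of all probe sets without overlap was not counted, so it is a description. Camk2a (0.19 ± 0.14, adjusted p = 0.371) and Prkcb (-0.08 ± 0.08, 0.523) did not pass. Camk2b and Prkce stayed called with region means as the samples (adjusted p = 0.0399 and 0.0247), whereas Camk2g (0.0716), Prkca (0.156), Camk2d (0.164), Prkcd (0.25) and Camk4 (0.496) did not. Only period B held regions of both groups (DG and RS), where Camk2b differed by 1.14, Prkcd by 2.58, Prkca by 0.67, Prkce by 0.93, Camk2d by -0.58, Camk2g by -0.73 and Camk4 by -1.20, and Prkcb differed there by -0.58 (adjusted p = 6.90e-04). Choroid plexus markers were higher in the hippocampal fields (4 of 5, median 0.87, list level 7.57 to 9.71 against 7.32 to 8.19), with medians relative to the other regions of 1.80 in CA2/CA3, -0.19 in CA1 and -0.09 in DG. Oligodendrocyte markers were also higher (6 of 7, median 0.68, list level 9.88 to 11.85 against 9.21 to 10.83) and endothelial ones lower without overlap (5 of 5, median -0.40, list level 7.36 to 7.69 against 7.77 to 8.52). The part of these 3 lists was not tested.

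The striatum (lateral and medial caudate putamen and Tu) set against the same neocortical arrays gave 3 higher and 3 lower genes (14.6% and 15.2% of all probe sets). Camk4 ran from 12.08 to 12.57 with a median of 12.31 in striatum and from 10.86 to 11.43 with a median of 11.05 in neocortex, a difference of 1.23 ± 0.11 (adjusted p = 7.12e-14) without overlap. Camk2b (0.86 ± 0.07, 3.37e-15) was higher without overlap and Prkcb (0.46 ± 0.08, 1.90e-06) with overlap. Camk2g ran from 9.58 to 10.50 with a median of 10.12 in striatum and from 11.48 to 11.94 with a median of 11.83 in neocortex, a difference of -1.65 ± 0.07 (adjusted p = 4.85e-27). Camk2d differed by -1.34 ± 0.10 (5.38e-17), which was -2.27 in period A, for both parts of the caudate putamen, and 0.54 in period B, for Tu against RS. Prkca was lower by -0.49 ± 0.09 (4.61e-06). The calls of Camk2d (adjusted p = 0.365) and Prkca (0.0726) were lost with region means as the samples. Within periods A and B, Camk4 differed by 1.22 and 1.25, Camk2b by 0.85 and 0.89, Prkcb by 0.40 and 0.56, Camk2g by -1.81 and -1.34 and Prkca by -0.55 and -0.37. Camk2a (-0.24 ± 0.14, 0.224), Prkcd (0.05 ± 0.10, 0.773) and Prkce (-0.03 ± 0.05, 0.751) did not pass. Neuron markers were lower in striatum (5 of 7, median -0.68, list level 11.83 to 12.08 against 12.55 to 12.87), and their part was not tested.

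In the hypothalamus none of the 9 genes was higher than in the other 36 regions (29.2% of all probe sets were) and 7 were lower (29.3%). The limma test called 0 genes higher at an unadjusted p under 0.05 as well, since all 9 differences were negative. As a description, the largest-SD probe set of Camk2g differed by 0.08. The 2 genes that were not lower, Camk2d and Camk2g, differed by -0.06 ± 0.04 (adjusted p = 0.221) and -0.03 ± 0.03 (0.458). Camk4 ran from 7.65 to 9.22 with a median of 8.57 in the hypothalamus and from 7.47 to 12.78 with a median of 10.23 elsewhere, a difference of -1.71 ± 0.05 (adjusted p = 5.28e-38). Prkcd fell by 1.14 ± 0.04 (7.65e-32), Prkcb by 1.08 ± 0.03 (1.58e-36), Camk2b by 0.55 ± 0.03 (9.97e-24), Prkce by 0.53 ± 0.02 (2.11e-29), Camk2a by 0.46 ± 0.06 (7.33e-10) and Prkca by 0.33 ± 0.04 (2.50e-12). The medians of Prkcd lay closer, at 8.25 in the hypothalamus and 8.55 elsewhere. Its mean elsewhere, 9.43, took in the high thalamic nuclei. Camk4, Prkcb and Prkce stayed called with region means as the samples, and Camk2a (0.507), Camk2b (0.0656), Prkca (0.413) and Prkcd (0.108) did not. Within the 4 sampling periods Camk4 differed by between -2.49 and -1.11, Prkcb by between -1.22 and -1.05, Camk2b by between -0.84 and -0.37 and Prkce by between -0.90 and -0.20. Prkcd differed by -1.61 in A and -1.25 in B, the periods that held the 5 thalamic nuclei. It differed by -0.36 in C and was not called in D (-0.04, adjusted p = 0.847). Prkca (0.27) and Camk2a (0.16) had the opposite sign in period B. Camk2d and Camk2g, which were not called over all regions, differed within periods with both signs. Camk2d differed by -0.18 in A (adjusted p = 0.0231), -0.17 in B (0.16), 1.11 in C (7.39e-14) and -1.34 in D (7.79e-15), and Camk2g by 0.27 in A (4.14e-06), -0.38 in B (5.17e-06), 0.37 in C (3.11e-05) and -0.25 in D (0.0134). Neuron markers were lower in the hypothalamus (6 of 7, median -0.66, list level 10.79 to 12.47 against 11.83 to 13.09), oligodendrocyte markers too (7 of 7, median -0.57, list level 9.03 to 12.56 against 7.69 to 12.64), and endothelial ones as well (4 of 5, median -0.14, list level 7.30 to 9.34 against 7.36 to 8.52). Oligodendrocyte markers were nonetheless high in SCN and SO, with medians of 1.70 and 1.61 relative to the other regions. Leptomeningeal markers were called higher in the contrast (5 of 6, median 0.44), whereas the median array of the list was 7.55 in the hypothalamus and 7.80 elsewhere (7.31 to 10.20 against 7.12 to 9.00). The higher regions were SO, ME, the arcuate nucleus, SCN and the mammillary body, with medians of 2.24, 1.94, 0.99, 0.96 and 0.52, and the other 7 lay between -0.59 and -0.35. The part of these markers was not tested.

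The cerebellar cortex (vermis and lobe) was higher than the other 46 regions in 5 genes (25.0% of all probe sets) and lower in 3 (35.7%). Camk4 read 12.61, 12.42, 12.75 and 12.78 in the cerebellar cortex and from 7.47 to 12.57 with a median of 9.67 elsewhere, a difference of 2.94 ± 0.10 (adjusted p = 6.72e-33). The vermis arrays overlapped with the medial caudate putamen. Camk2d (1.44 ± 0.09, 8.14e-21), Prkcd (1.36 ± 0.09, 8.30e-20), Prkcb (0.38 ± 0.07, 2.50e-06) and Camk2b (0.29 ± 0.06, 1.36e-04) were also higher. Camk2a read 9.84, 9.67, 9.48 and 9.74 in the cerebellar cortex, with a median of 11.36 elsewhere, a difference of -1.78 ± 0.13 (adjusted p = 2.06e-18). Camk2g was lower by -0.47 ± 0.07 (1.33e-08) and Prkca by -0.21 ± 0.08 (0.0167), and the Prkca call was lost without any 1 of the 4 cerebellar arrays, at -0.22 without the first vermis pool (0.0541), -0.20 without the second (0.0629), -0.21 without the first lobe pool (0.0525) and -0.21 without the second (0.0655). Prkce (-0.05 ± 0.05, 0.404) did not pass. Of these calls only that of Camk4 stayed with region means as the samples (0.0171), the adjusted p of the other 7 being between 0.143 and 0.834. Both parts of the cerebellar cortex were sampled in period A, within which Camk4 differed by 2.72, Camk2d by 1.43, Prkcd by 1.21, Prkcb by 0.45, Camk2b by 0.20, Camk2a by -2.45 and Camk2g by -0.36, while Prkca (-0.15, adjusted p = 0.103) was not called. The cerebellar nucleus lay below the cortex for Camk4 (8.77 and 9.45) and Camk2d (9.05 and 9.35). Camk2a was low in the nucleus as well, at 9.46 and 8.82. Microglia markers were lower in the cerebellar cortex (6 of 6, median -0.89, list level 7.72 to 7.82 against 8.15 to 9.93), and their part was not tested.

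In the spinal cord 2 genes were higher than in the other 46 regions (18.2% of all probe sets) and 6 lower (22.1%). Camk2g read 11.83, 11.81, 11.85 and 11.74 in the spinal cord and from 9.58 to 12.00 with a median of 10.99 elsewhere, a difference of 0.78 ± 0.07 (adjusted p = 2.66e-15). Camk2a read 8.66, 9.51, 9.76 and 10.49 there, with a median of 11.36 elsewhere, a difference of -1.86 ± 0.13 (8.62e-19). Camk4 (-1.38 ± 0.10, 1.00e-17), Camk2b (-0.78 ± 0.06, 1.81e-15), Prkcd (-0.64 ± 0.09, 2.87e-08), Prkca (-0.52 ± 0.08, 7.82e-08) and Prkce (-0.48 ± 0.05, 6.64e-13) were lower. Camk2d was higher by 0.25 ± 0.09 (0.0234), and this call was lost at 0.20 without the first anterior pool (0.152) or the second posterior pool (0.167). Prkcb differed by -0.16 ± 0.07 (0.0611), and became called without the second pool of the anterior (0.0375) or posterior amygdala (0.0327), the first pool of the paraventricular nucleus (0.0457) or of Pn (0.0469), at -0.16 each, or the second anterior spinal cord pool (-0.21, 0.0414). None of the 8 genes stayed called in limma with region means as the samples (adjusted p between 0.305 for Camk2g and 0.937 for Camk2d), and 1 gene was higher and 0 lower there at an unadjusted p under 0.05. Within period B, which held both cord regions, Camk2g differed by 0.57, Camk2d by 0.25, Camk2a by -1.34, Camk4 by -1.29, Camk2b by -0.55, Prkcd by -0.97 and Prkce by -0.38, and Prkca was not called (-0.11, adjusted p = 0.294). The other regions of period B included 3 of the thalamic nuclei. Oligodendrocyte markers were higher in the spinal cord (7 of 7, median 1.87, list level 12.47 to 12.64 against 7.69 to 12.56), as were astrocyte (5 of 6, median 0.38) and neuron markers (5 of 7, median 0.27). Their part was not tested.

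The genes around these kinases were read from a list of 47 measured genes of calcium/calmodulin and diacylglycerol signalling, with the median difference of all probe sets between -0.07 and 0.01. In the telencephalon 31 of them were higher and 13 lower, with a median of 0.25, beside 26.5% and 30.1% of all probe sets. Nrgn, a calmodulin-binding protein of dendritic spines, differed by 2.79 ± 0.04 (adjusted p = 1.16e-49), Itpka, an IP3 kinase, by 2.70 ± 0.04 and Rasgrp1, a Ras activator that binds diacylglycerol, by 2.27 ± 0.03. All 4 calcineurin subunit genes were higher, as were 5 of the 6 listed CaMKII targets, the exception being Creb1, a nuclear transcription factor. Plcb4, a phospholipase C, fell by 1.94, Akap12, a kinase anchor, by 1.47 and Camk2n2, a CaMKII inhibitor, by 0.91. Of the hippocampal fields against neocortex, 15 were higher and 19 lower (median -0.03; 15.2% and 14.2% of all probe sets), led by Gria1, an AMPA receptor subunit, at 1.55, Camkv at 0.96 and Grin2a at 0.93 above, and by Plcb4 at -1.43, Gap43 at -1.32 and Unc13c at -1.28 below. In the striatum 16 were higher and 13 lower (median 0.10), beside 14.6% and 15.2% of all probe sets. Rasgrp2, a Rap activator, differed by 4.23 ± 0.09 there (11.51 in striatum and 7.28 in neocortex), Pcp4l1 by 2.73 and Prkch, protein kinase C eta, by 2.05, while Camk2n2 (-1.91), Plcb4 (-1.90) and Camk1 (-1.44) were lower.

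In the 5 thalamic nuclei 17 of the 47 were higher and 19 lower (median 0.00), beside 21.1% and 26.1% of all probe sets. Rasgrp1 (2.22 ± 0.05), Plcb4 (1.93 ± 0.06) and Pcp4l1 (1.92 ± 0.07) were higher there, and Nrgn (-1.63), Gria1 (-1.38) and Itpka (-1.32) were lower. The hypothalamus had 15 higher and 28 lower (median -0.42), beside 29.2% and 29.3% of all probe sets, with Pnck, a CaM kinase of the CaMKI group, at 1.37, Gap43 at 0.97 and Marcksl1 at 0.88 above, and Pcp4l1 at -1.64, Itpka at -1.50 and Rasgrp1 at -1.41 below. All 6 other diacylglycerol-binding proteins and all 4 calcineurin genes were lower in it. The cerebellar cortex had 13 higher and 23 lower (median 0.00), beside 25.0% and 35.7% of all probe sets, with Chn2, a Rac-inactivating protein that binds diacylglycerol, at 3.61, Unc13c at 1.85 and Plcb4 at 1.80 above, and Camkv at -2.40, Pcp4l1 at -1.87 and Grin2b, an NMDA receptor subunit, at -1.81 below. In the spinal cord 9 were higher and 24 lower (median -0.13), beside 18.2% and 22.1% of all probe sets, with Pcp4l1 (1.70), Unc13c (1.15) and Akap12 (1.13) above and Rasgrp1 (-3.38), Nrgn (-1.80) and Itpka (-1.29) below. Each of these named genes passed the test. Some other genes of these pathways are not analysed here.

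For each kinase the 3 genes of most similar pattern were found by Pearson r of regional means over the 48 regions, among 14448 genes. The closest to any was Wasf1, an actin regulator, with Prkce (r = 0.952), and Ppp3cb, a calcineurin subunit, stood near both Prkce (0.916) and Camk2b (0.864). Camk2a was followed by Neurl1b (0.905), Plppr4 (0.902) and Cyria (0.901), and Camk2b further by Ccsap (0.876) and Fbxl16 (0.864). Prkce also had Dlg3 (0.909), a synaptic scaffold. Camkk2, the kinase that activates CaMKIV, was second for Camk4 (0.843), after Zfyve28 (0.874) and before Gabrd (0.837). Camk2n2, the CaMKII inhibitor, was first for Camk2d (0.720), before Dner (0.678) and Lnx1 (0.667). The rank correlations of these 3 genes were lower, at 0.643, 0.487 and 0.402. Camk2g had Habp4 (0.759), Klhl32 (0.757) and Vwa5b2 (0.756), Prkca had Limd2 (0.825), Cracdl (0.815) and Psd (0.809), and Prkcb had Cyfip2 (0.856), Ephx4 (0.838) and Plcl2 (0.837). For Prkcd the first were Ramp3 (0.846), a receptor activity-modifying protein, Rasl11a (0.844) and Clmn (0.837), each highest in MD, with rank correlations of only 0.325, 0.425 and 0.476. By Spearman rho, 12 of the 27 genes remained among the first 3.

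Outside the 48 regions, no kinase read above all 96 arrays in the retina, pituitary or pineal. Camk2b (7.89 and 8.53), Prkcb (9.78 and 9.35) and Prkce (9.90 and 9.44) in the retina lay below all of them, as did Camk2b (8.80 and 8.60), Camk4 (6.56 and 6.47) and Prkcb (9.72 and 9.68) in the pituitary and Camk4 (7.31 and 7.31) in the pineal. Prkcd read 10.24 and 10.15 in the retina, between the cerebellar vermis and CA2/CA3, and 8.78 and 8.72 in the pituitary.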

How the data were processed

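RNA of 102 Affymetrix arrays (51 regions, 2 pools each) was used as log2 values, which the authors deposited after RMA (background correction, quantile normalization and summary over probes). RMA makes arrays share 1 distribution, so a shift of most genes in a region is removed. The version is not given in the sources used here. After removal of 64 controls, 45037 probe sets remained, of which 34945 name 1 gene. Limma 3.58.1 (R 4.3.3) was fitted to the 96 arrays of 48 regions with 1 coefficient per region, 48 residual degrees of freedom and Benjamini-Hochberg adjustment over all probe sets at 0.05. The error is thus the spread between both pools of a region. Figures and descriptions used Python 3.11.15. The model was tested on simulated data. The members and lists were chosen with earlier results of these data known. Named genes are all members, for each group comparison up to 3 list genes in each direction with the largest called difference, and the 3 genes of most similar pattern. Alternatives were cyclic loess, a minimum of 7 for the highest regional mean, a variance trend, the replicate number as a block, all 51 regions, each array left out, the largest-SD probe set, region means as samples, and sampling period.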

Additional observations from a re-analysis of the deposited data

Results flagged for a closer look

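Of 54 sets of 4 to 10 arrays (9 genes in 6 groups of regions), 1 had an array far from the rest. Chance alone gives about 1 in 20 for replicates of a single condition. These sets mix regions with different levels, so that rate does not apply to them. Camk2b in the first VA/VL pool read 11.25, 0.47 above the next of the 10 thalamic arrays at 10.78, a gap that took 0.58 of the range. The second VA/VL pool is that next array.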

How the results depend on the processing

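The choice of error mattered most. With region means as the samples in limma, 0 members were lower in the telencephalon (3 with pools as the error; 2 at an unadjusted p under 0.05), 2 higher and 0 lower in the hippocampal fields (4 and 3; 2 lower unadjusted), 1 lower in the striatum (3), 1 higher and 1 lower in the thalamic nuclei (4 and 3), 3 lower in the hypothalamus (7), 1 higher and 0 lower in the cerebellar cortex (5 and 3; 0 lower unadjusted) and 0 higher and 0 lower in the spinal cord (2 and 6). With sampling period as a block as well, the counts were 0 lower in the telencephalon (1 unadjusted), 1 higher and 1 lower in the thalamic nuclei, 4 lower in the hypothalamus, 1 higher and 0 lower in the cerebellar cortex (1 lower unadjusted) and 0 and 0 in the spinal cord (0 and 0 unadjusted). Calls over all probe sets came to 11313 in the telencephalon (25497 with pools as the error), 512 in the hippocampal fields (13282), 3484 in the striatum (13386), 2019 in the thalamic nuclei (21271), 9278 in the hypothalamus (26373), 5723 in the cerebellar cortex (27345) and 337 in the spinal cord (18162), and with the period block to 14496, 1738, 9941, 9200 and 174 in the telencephalon, thalamic nuclei, hypothalamus, cerebellar cortex and spinal cord. These fits hold fewer samples by construction.

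The largest-SD probe sets were chosen by their spread over these same regions, so their calls are a description and not a test. With them, Camk2g differed by 0.08 in the hypothalamus, where the tested set gave -0.03. These probe sets also made 5 single values pass and 1 fail, and the cause was not tested. With each of the 96 arrays left out, members higher in the spinal cord ranged from 1 to 2. Cyclic loess made Camk2d in the hypothalamus (-0.09, adjusted p = 0.0377) and Prkcb in the spinal cord (-0.24) pass, and the minimum level of 7 made Prkcb there pass (0.0498). Cyclic loess, the minimum of 7, the variance trend, the replicate block and all 51 regions changed no other call of a member in the 7 comparisons.

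The replicate numbers do not pair regions by design. Deviations of the first pools correlated over 0.1 in 282 of 1128 pairs of regions and under -0.1 in 234, with a mean of 0.009. The replicate block left the member counts as they were (6 higher and 3 lower in the telencephalon, for example) except for 183 in place of 184 lower pairs of gene and region, and all-probe-set calls in the telencephalon came to 25544 in place of 25497. With 2 pools a region, small differences are not resolved, and dim probe sets are near background.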
